A study of Mus musculus with 2 samples.

Results

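The microRNA miR-574 was measured in exosomes of LLC cells, a mouse Lewis lung carcinoma line, through both mature strands of its hairpin, mmu-miR-574-5p and mmu-miR-574-3p. These 2 strands, called arms, were the members among 1881 mouse miRNAs on the array. They were chosen by name after the signal of miR-574-5p had been seen to be among the highest of the arrays, so its place near the top is a description and was not tested. Exosomes were taken by ultracentrifugation from the supernatant of LLC cells kept in medium with exosome-free serum, and their RNA was hybridized to Agilent mouse miRNA arrays after labelling with Cy3 alone. The 2 arrays, replicate 1 and replicate 2, came from separate experiments and form 1 group, with no treatment, no mutation and no array of the parent cells or of vesicle-free medium among those analysed here. All values therefore come from 1 cell line, and no difference between groups could be tested. The label of a GU-rich exosomal miRNA held for the 5p arm alone, since the 3p arm was rich in A and C and was detected on neither array.

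A miRNA hairpin is cut by Drosha and Dicer into a short duplex of its arms, of which usually 1 strand is kept by an Argonaute protein and the other is degraded. The kept strand pairs with mRNAs mainly through its seed, bases 2 to 8. The 5p arm of miR-574 is known for its GU repeat, which the RNA-binding protein CELF1 (CUGBP1) recognizes, and it has been described in lung cancer as a decoy for that protein and, when carried by extracellular vesicles, as a ligand of endosomal Toll-like receptors that sense GU-rich single-stranded RNA.

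The sequences of both arms and their hairpin were taken from RefSeq (assembly GRCm38.p6) to show how unlike the arms are. Capitals mark the seed in each arm, and the arms themselves in the hairpin.
mmu-miR-574-5p: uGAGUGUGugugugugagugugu
mmu-miR-574-3p: cACGCUCAugcacacacccaca
Mir574 hairpin: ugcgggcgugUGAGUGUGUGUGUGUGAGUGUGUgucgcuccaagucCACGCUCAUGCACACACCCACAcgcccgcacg

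The hairpin of 78 bases lay on the plus strand at chr5:64970318-64970395, the 5p arm at chr5:64970328-64970350 and the 3p arm at chr5:64970364-64970385. This is inside the span of Fam114a1 on the same strand, 243 bases after its start, and also inside the span of Tlr6 on the opposite strand, which encodes a Toll-like receptor of the cell surface. Whether these bases are exonic or intronic was not settled, because exon positions were not used here. The 5p arm has 23 bases, of which 11 are G, 10 are U, 2 are A and 0 are C. Its G and U alternate without a break over 13 bases, from base 4 to base 16. The 3p arm has 22 bases, of which 11 are C, 7 are A, 2 are G and 2 are U. G and U thus made up 91.3% of the 5p arm and 18.2% of the 3p arm. Folding of the hairpin with RNAfold paired 20 bases of the 5p arm with the 3p arm, 3 of them as G with U, at a predicted free energy of -55.6 kcal/mol. Of the miRNAs on the array, 1608 had a mature sequence in the RefSeq table, and 0 others shared the seed of either arm.

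On the arrays the 5p arm was bright and even. It had 2 probes of 15 spots each, and the signals below are Feature Extraction's processed signals, which are fluorescence intensities with the background subtracted. In replicate 1 its 30 spots ran from 739 to 1425 intensity units with a median of 1037, and in replicate 2 from 808 to 1526 with a median of 1155. Every one of these spots was well above background on both arrays. The dimmest of them was 78.2 times as bright as the brightest negative control spot in replicate 1, and 86.3 times in replicate 2.

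The probes of the 5p arm differed from each other more than the arrays did. Probe A_54_P3153 had a mean of 804 ± 31.4 intensity units in replicate 1 and 857 ± 32.9 in replicate 2 (SD over 15 spots). Probe A_54_P3154 had a mean of 1332 ± 65.1 in replicate 1 and 1456 ± 42.3 in replicate 2. On both arrays the spots of the probes did not overlap, and the second probe was 1.66 times as bright as the first in replicate 1 and 1.70 times in replicate 2. Spots of 1 probe varied with a coefficient of variation between 2.91% and 4.89%, so these ratios were larger than the spread between spots. By mean intensity the probes took places 9 and 17 among the 4415 probes of the array in replicate 1, and 9 and 14 in replicate 2. Over the 140 miRNAs with several probes that were all detected on both arrays, the distance between the brightest and dimmest probe had a median of 0.33 on the log2 scale, against 0.75 for miR-574-5p, which was wider than for 105 of them.

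**Figure D1:**
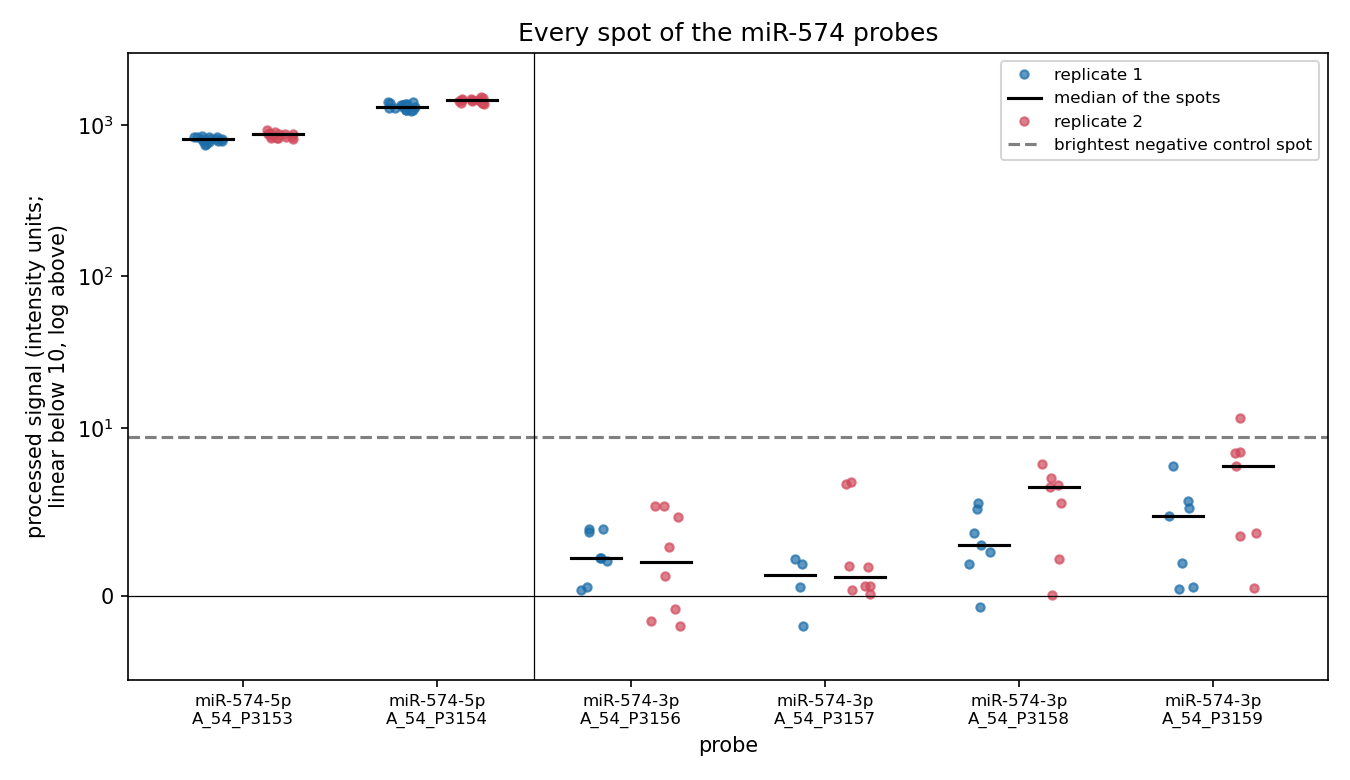
Processed signal of every spot of the 6 probes for miR-574, in intensity units on an axis that is linear below 10 and logarithmic above, with replicate 1 in blue, replicate 2 in red and outlier spots left out. Black bars are medians over spots and the dashed line is the brightest negative control spot of either array, at 9.45. The spots of the 5p arm start at 739, and those of the 3p arm end at 11.6.

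The 3p arm gave a weak signal on both arrays, with medians above that of the negative control spots and nearly all spots inside their range. It had 4 probes, 2 with 8 spots and 2 with 7, and 4 of the 8 spots of A_54_P3157 in replicate 1 were left out because Feature Extraction marked them as outliers. In replicate 1 the remaining 26 spots ran from -1.77 to 7.72 intensity units with a median of 2.26. In replicate 2 the 30 spots ran from -1.80 to 11.6 with a median of 3.66. The negative control spots had a median of 0.619 in replicate 1 and 0.739 in replicate 2 and reached 9.45 and 9.35, so that 1 spot of the 3p arm, in replicate 2, lay above all of them. The 95th percentile of the negative control spots was exceeded by 6 of the 26 spots in replicate 1 and by 13 of the 30 in replicate 2. None of the spots of this arm was well above background.

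The 4 probes of the 3p arm were not alike. A_54_P3156 had a mean of 2.39 ± 1.46 intensity units in replicate 1 and 1.93 ± 3.06 in replicate 2 (SD over 8 spots). A_54_P3157 had 0.713 ± 1.80 in replicate 1 over 4 spots and 2.32 ± 2.77 in replicate 2 over 8. The other probes were somewhat brighter on both arrays, although their spots overlapped with those of the first ones. A_54_P3158 had 3.04 ± 2.09 in replicate 1 and 5.09 ± 2.88 in replicate 2, and A_54_P3159 had 3.75 ± 2.82 and 6.31 ± 3.84 (SD over 7 spots). The total signal of a probe counted as detected when it exceeded 3 times its error. The highest such ratio of the 3p arm was 2.01, for A_54_P3159 in replicate 2, and the others were 1.64 or lower. Both probes of the 5p arm had 9.99 on both arrays. Their total signals differed, at 170 and 283 in replicate 1, with errors of 17.1 and 28.3. The ratio therefore does not grade how bright these probes were.

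Feature Extraction's call of a detected miRNA, required on both arrays, was met by 11.5% of the 1881 miRNAs, the 5p arm among them and the 3p arm not. A stricter call asked that 50% or more of a probe's spots be flagged well above background on each array. It was met by 7.07%, again with the 5p arm and without the 3p arm. The mildest call asked the same of the flag for a positive and significant signal, and it was met by 24.9%, the 3p arm among them. The 3p arm thus passed the mildest call and neither of the others. A single probe sufficed for this call, and the arm passed through A_54_P3158 and A_54_P3159. The arm had 4 probes, whereas 79.4% of the miRNAs had 2, so the share of 24.9% is not matched for the number of probes. A_54_P3156 had 3 of 8 spots flagged on each array. A_54_P3157 had 0 of 4 in replicate 1 and 2 of 8 in replicate 2.

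To compare arrays, signals were scaled per array so that the 75th percentile of the 393 probes detected on both equalled 1, and their log2 was averaged over spots and then over probes. This value is called the level, and a level higher by 1 is a signal 2 times as high. The level of miR-574-5p was 4.37 in replicate 1 and 4.80 in replicate 2, with a mean of 4.58 ± 0.31 (SD, n = 2 arrays). Before scaling, its probes were 1.07 and 1.09 times as bright in replicate 2 as in replicate 1. The scaling divided by 50.2 in replicate 1 and by 39.95 in replicate 2, which widened the difference between arrays to 0.44 on the log2 scale. Over the 216 miRNAs detected on both arrays the signed difference, replicate 2 minus replicate 1, had a median of 0.21. It was above that of miR-574-5p for 22.2% of them, a share that leaves out miRNAs whose level fell by more. Without regard to sign, the median difference was 0.35.

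Between the arms, no spots overlapped on either array. The dimmest spot of the 5p arm was 95.7 times as bright as the brightest spot of the 3p arm in replicate 1, and 69.5 times in replicate 2. The level of the 3p arm was -6.05 in replicate 1 and -5.43 in replicate 2, but spots at or below 0, of which there were 2 and 3, enter it at a floor, so only a bound is meaningful. The dimmest probe with all spots well above background had a mean of 18.2 intensity units in replicate 1 and 18.5 in replicate 2, which is above every probe of the 3p arm. Against that limit the level of the 5p arm was higher by 5.83 in replicate 1 and by 5.91 in replicate 2, so its signal was at least 56.8-fold higher in replicate 1 and at least 60.2-fold higher in replicate 2. Probes for different RNAs bind with different strength, so this is a ratio of signals and not of copies.

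Detection of 1 arm was common on these arrays. For 723 hairpins both arms were on the array. Both arms were detected on both arrays for 7 of them, the 5p arm alone for 78 and the 3p arm alone for 53, where the opposite arm was called on neither array. For 556 hairpins no arm was called on either array, and 29 were mixed between arrays. Among the 131 hairpins with 1 detected arm, miR-574 had the third highest level, after miR-466i with 5.74 ± 0.36 and miR-1224 with 5.54 ± 0.72 and ahead of miR-3082 with 4.01 ± 0.32 (5p arms, SD, n = 2 arrays). The median level of the 78 detected 5p arms was -1.39.

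In the 7 hairpins with both arms detected, the 5p arm was higher in 7, and the mean difference between arms ran from 0.46 to 7.06 on the log2 scale with a median of 1.97. Only 1 of them exceeded the bound of 5.87 for miR-574, which was miR-6769b, with 6.88 in replicate 1 and 7.23 in replicate 2. The next lower were let-7b with 2.91 and 2.23, miR-7045 with 2.35 and 1.87, and miR-7082 with 2.19 and 1.74. Each of these lay below the bound on both arrays. The 7 hairpins were selected for a detected 3p arm, which miR-574 lacks. Only miR-6769b had a 5p arm as bright, with a mean level of 4.86, and the next highest was miR-7082 with 0.76. The comparison therefore cannot show whether the difference between the arms of miR-574 is unusual.

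**Figure D2:**
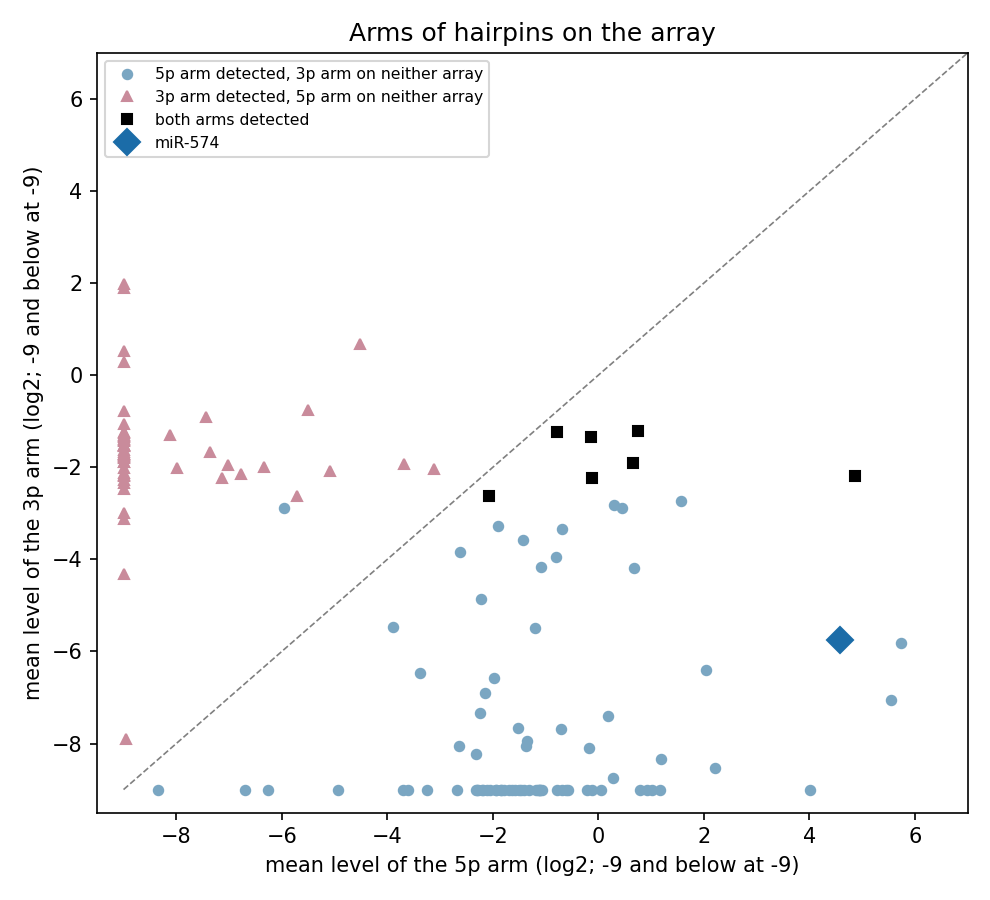
Mean level over 2 arrays of the 5p arm (horizontal) and the 3p arm (vertical) for hairpins with at least 1 arm detected on both arrays and the other called on both or neither, on the log2 scale, with values of -9 and below drawn at -9. The dashed line marks equal levels. miR-574 is the diamond at 4.58 and -5.74, and 1 of the 7 hairpins with both arms detected lies as far right, miR-6769b at 4.86.

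In the order of mean level among the 216 detected miRNAs, miR-574-5p stood at position 6, with position 9 in replicate 1 and 6 in replicate 2. The miRNAs just above it were miR-6769b-5p with a level of 4.86 ± 0.52, miR-3963 with 5.44 ± 0.15 and miR-1224-5p with 5.54 ± 0.72 (SD, n = 2 arrays). All 3 were higher than miR-574-5p on each array, and miR-6769b-5p was the closest, by 0.13 in replicate 1 and 0.43 in replicate 2. Just below it were miR-5126 with 4.31 ± 0.41, miR-5100 with 4.21 ± 0.39 and miR-8110 with 4.12 ± 0.63. These 3 were higher than miR-574-5p in replicate 1 and lower in replicate 2, so their order against it did not hold beyond the spread between arrays. The detected probes of miR-574-5p carried 3.90% of the summed total signal of all detected probes in replicate 1 and 4.73% in replicate 2.

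Placed by its level among the detected miRNAs, the 3p arm would be at position 209, and at 217 when its brightest probe was used, below all 216. This place is no measured rank, since the arm was not detected and part of its spots enter at the floor. Detected miRNAs of similar level were miR-466a-5p at -4.81 ± 0.14, miR-19b-3p at -4.90 ± 0.79 and let-7e-5p at -4.93 ± 3.10 above, and miR-3547-5p at -5.96 ± 2.82, miR-106b-5p at -6.27 ± 1.12 and miR-6978-5p at -6.69 ± 2.69 below (SD, n = 2 arrays). Their order there carries little, since let-7e-5p, for example, was at -7.12 in replicate 1 and -2.74 in replicate 2.

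Of the array miRNAs with a sequence in the table, miR-574-5p had the longest alternating stretch of G and U, ahead of miR-1187 with 11 bases and miR-3082-5p with 10. It also had the highest share of G and U of these 1608 miRNAs, ahead of miR-669n with 90.0% among the GU-repeat miRNAs and against a median of 54.5% over all, whereas the 3p arm was the fourth lowest. A stretch of at least 8 alternating bases was found in 9 of these miRNAs, which are called GU-repeat miRNAs here. The 34 detected miRNAs without a sequence in the table could not be searched, among them miR-466i-5p, which stood above miR-574-5p at position 2 with a level of 5.74 ± 0.36. The 9 sequences are shown because the stretches can be compared by eye. Capitals mark the longest alternating stretch.
mmu-miR-574-5p: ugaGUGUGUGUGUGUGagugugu
mmu-miR-1187: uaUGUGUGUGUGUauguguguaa
mmu-miR-3082-5p: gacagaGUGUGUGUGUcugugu
mmu-miR-32-3p: caauuuaGUGUGUGUGauauu
mmu-miR-466k: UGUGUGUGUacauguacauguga
mmu-miR-669n: auuUGUGUGUGgaugugugu
mmu-miR-672-5p: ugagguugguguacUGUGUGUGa
mmu-miR-6348: ucagccuuuauaagGUGUGUGU
mmu-miR-3097-5p: cacaggugggaaGUGUGUGUcca

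Besides miR-574-5p, 7 of the 8 other GU-repeat miRNAs were detected on both arrays, where 11.3% of all array miRNAs with a sequence were. With 11 alternating bases, miR-1187 had a level of 3.51 in replicate 1 and 3.91 in replicate 2. With 10 alternating bases, miR-3082-5p had 3.78 and 4.24. With 9, miR-32-3p, the partner strand of miR-32-5p, had 1.76 and 2.21. All of these were below miR-574-5p on each array. The miRNAs with 8 alternating bases spread more widely. On the arrays, miR-669n had 2.62 and 3.04, miR-672-5p had 0.89 and 1.17, miR-6348 had 0.77 and 1.09, and miR-3097-5p had -1.13 and -1.12.

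The exception was miR-466k, whose 9 alternating bases are bases 1 to 9. Its mean signal was -0.939 intensity units in replicate 1 and -1.50 in replicate 2, and its brightest spots were 3.28 and 4.66, below the brightest negative control spot. In the 8 detected miRNAs of the list the stretch ended at base 11 or later. Whether the position of the stretch bears on the signal was not tested.

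The 7 detected others had a median level of 1.99, and the 216 detected miRNAs had a median of -1.46. Including miR-574-5p, the list carried 11.1% of the summed total signal of detected probes in replicate 1 and 13.4% in replicate 2. Across the array, 10.9% of 1325 miRNAs with an alternating stretch of 1 to 3 bases were detected, 9.45% of 254 with 4 or 5, 30.0% of 20 with 6 or 7, and 8 of the 9 with 8 or more. High signal was not particular to such sequences. Of the 5 miRNAs above miR-574-5p in the order, 4 had a sequence in the table (miR-6366, miR-1224-5p, miR-3963 and miR-6769b-5p). Each of these had an alternating stretch of 3 bases or fewer. The other, miR-466i-5p, had no sequence there, so whether its stretch is longer than that of miR-574-5p is not known here. The listed miRNAs are not independent of each other, as they share sequence with miR-574-5p over 8 to 12 bases in a row, the longest with miR-3082-5p. How far the probes of one bound another was not tested.

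**Figure D3:**
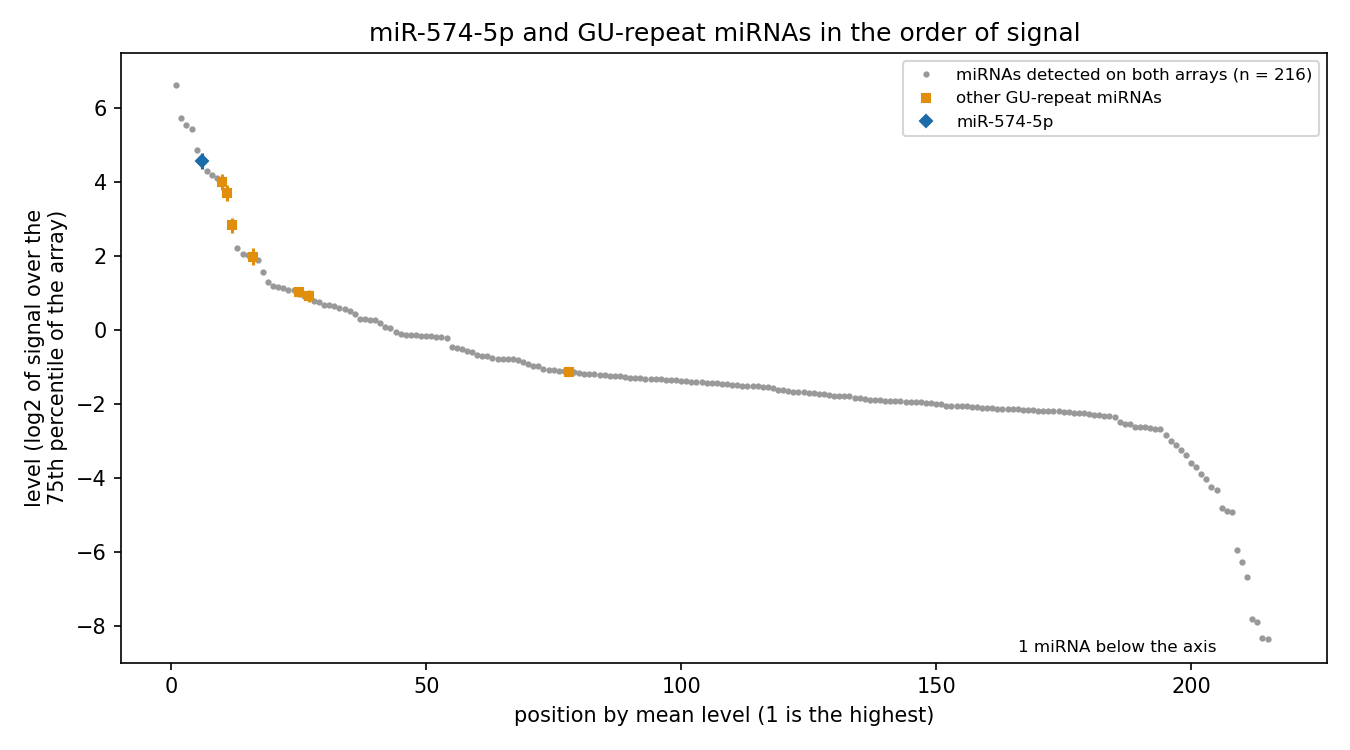
Mean level (vertical, log2 of signal over the 75th percentile of the array) of the 216 miRNAs detected on both arrays against their position (horizontal), in grey, with the other 7 detected GU-repeat miRNAs in orange and miR-574-5p in blue. Vertical lines on the coloured points join the values of the 2 arrays, and 1 miRNA lies below the axis. miR-574-5p is at position 6, and the orange points run from position 10 to position 78.

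**Figure D4:**
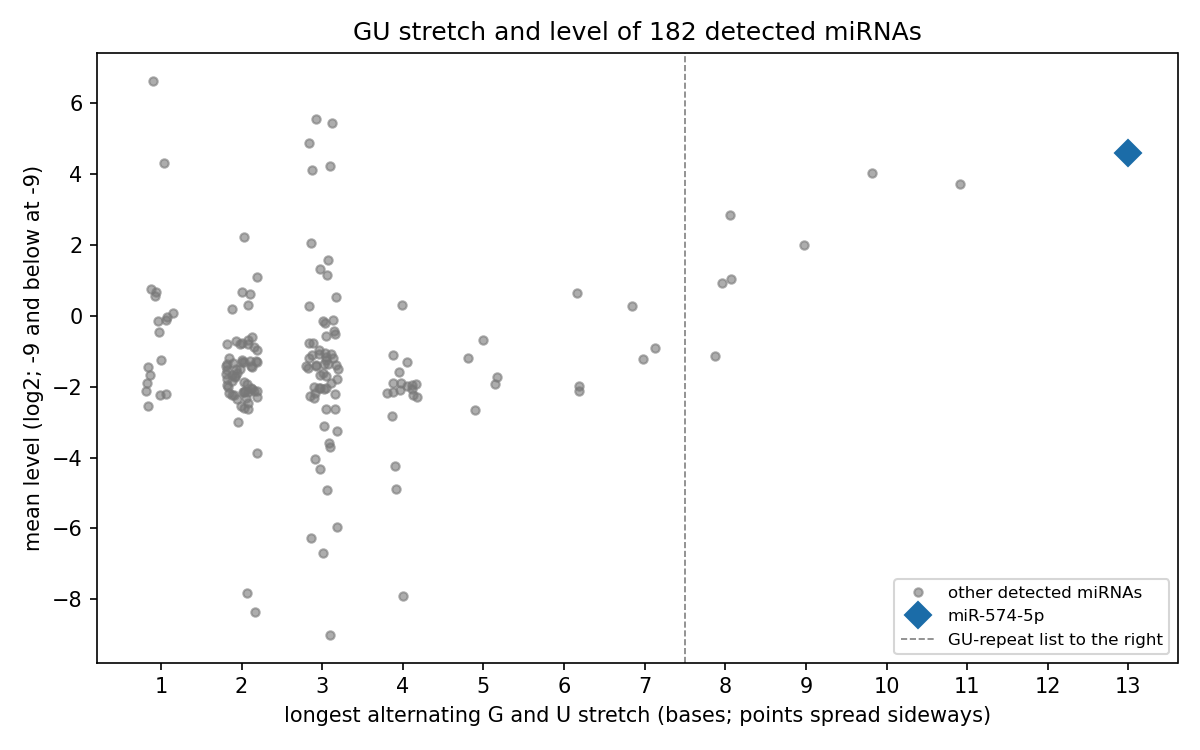
Mean level over 2 arrays (vertical, log2) against the longest alternating stretch of G and U in the mature sequence (horizontal, bases) for 182 detected miRNAs with a sequence in RefSeq, with values of -9 and below drawn at -9. miR-574-5p is the diamond at 13 bases and 4.58. Stretches of 1 to 3 bases hold both the highest and the lowest levels.

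Among other vesicle miRNAs known as ligands of GU-sensing Toll-like receptors, let-7b-5p, miR-21a-5p and miR-29a-3p were all detected on both arrays and all had lower levels than miR-574-5p. Capitals mark their longest stretch of G and U in any order.
mmu-let-7b-5p: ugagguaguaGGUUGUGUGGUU
mmu-miR-21a-5p: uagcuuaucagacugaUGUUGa
mmu-miR-29a-3p: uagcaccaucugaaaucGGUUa

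The level of let-7b-5p, a tumour-suppressing miRNA of the let-7 family, was 0.82 in replicate 1 and 0.48 in replicate 2, at position 32. The level of miR-21a-5p, which is raised in many tumours, was -0.99 in replicate 1 and -0.14 in replicate 2, at position 58. The level of miR-29a-3p, which targets collagen mRNAs, was -2.18 and -1.83, at position 150, with 1 of its 2 probes detected on each array. Their longest G and U stretches have 12, 5 and 4 bases against 13 in miR-574-5p, so the order of the levels of these 4 miRNAs was also the order of the stretches. With 4 miRNAs and different probes this is a description only.

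The arrays were similar in outlier and saturated spots, while replicate 2 was the dimmer by detection. Detected probes numbered 483 in replicate 1 and 406 in replicate 2. Spots well above background made up 7.59% and 6.23% of the miRNA spots. Feature Extraction detected 253 miRNAs in replicate 1 and 223 in replicate 2, outlier spots numbered 1178 and 1134 of 56430, and 0 miRNA spots were saturated. The sample labels describe a blood RNA kit with globin removal. Markers of red blood cells were therefore examined, and 4 of 5 were on the array, of which 0 were detected on either array, with summed mean signals of 7.24 intensity units in replicate 1 and 6.59 in replicate 2. Of 5 epithelial miRNAs of the miR-200 family, 0 were detected on either array, with summed mean signals of -4.05 and -2.93. In the log2 table that the authors deposited, miR-574-5p had 8.13 in replicate 1 and 8.93 in replicate 2, at places 9 and 6, and miR-574-3p was listed at the lowest value of the table, -3.32, in both.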

How the data were processed

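RNA of LLC-derived exosomes was hybridized to 2 Agilent mouse miRNA arrays of design 070155. The authors deposited the fluorescence intensity of each spot from Feature Extraction 10.7.1.1 (9.1 in the submitters' processing notes) with background subtracted, totals and errors per probe, flags, and p-values of each spot against background, which were not used. The authors also deposited a log2 value per miRNA. How that table was made is not given in the sources used here, its 2 columns hold the same set of values, its scale and centring stay unknown, and its median is -3.32 in both columns.

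Control and outlier spots were left out. Signals were divided by the 75th percentile of probe means over the 393 probes detected on both arrays (total signal above 3 times its error), the lowest positive scaled value replaced any that were not positive, and log2 was averaged over spots, then probes. A position is 1 plus the number of other detected miRNAs with a higher mean level. Sequences came from RefSeq tables of GRCm38.p6, and a stretch of at least 8 alternating G and U bases defined GU-repeat miRNAs. With 1 group of 2 arrays no test was made, and the number of arrays limits the precision. The members and lists were chosen with earlier results of these data known. Named miRNAs were both arms, the 3 detected miRNAs on each side of each arm in level, GU-repeat miRNAs, Toll-like receptor ligands, red blood cell and epithelial markers, miRNAs sharing a seed, and the nearest hairpins by difference between arms, here by the bound of miR-574 because its 3p arm was not detected. The hairpins with the highest single arms were named after their values were seen. So were the comparison of G and U in any order, the end position of the GU stretches and the miRNAs sharing bases with an arm.

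Python 3.11.15, numpy 2.4.6, pandas 2.3.3, matplotlib 3.10.9, R 4.3.3 with limma 3.58.1 (normexp, offset 50) and RNAfold 2.7.2 were used. The computation was tested on simulated arrays. Alternatives covered the probe summary, background correction, scaling, detection call, values used, outlier spots and each replicate left out.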

Additional observations from a re-analysis of the deposited data

How the results depend on the processing

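The position of miR-574-5p was 6 or 7 under the alternatives that used both arrays, and ranged from 6 to 9 with 1 replicate left out. Its level of 4.58 was 4.96 with the brightest probe, 3.49 with normexp, 4.16 with total gene signal, 5.77 with scaling to the median, and on other scales 8.80 with the 75th percentile over all probes and 8.53 in the deposited table. The level of miR-574-3p, -5.74, was -3.77 with the brightest probe, -0.77 with normexp, -1.53 with the 75th percentile over all probes, -4.55 with scaling to the median and -3.85 with intensities averaged before log2. The difference between arms with the 3p arm at its floored level, 10.33, is no measured size, and was 8.73 with the brightest probe, 4.25 with normexp, whose offset of 50 lifts dim spots by construction, 8.48 with intensities averaged before log2 and 10.57 with outlier spots kept. The position of miR-574-3p, 209 among 216 detected miRNAs, is likewise no measured rank. It was 217 with the brightest probe, the total gene signal or the deposited table, 216 with normexp or intensities averaged before log2, 133 among miRNAs with spots well above background, 375 among those positive and significant and 382 without a filter, where the number of miRNAs ranked differs by construction, and ranged from 214 to 243 with 1 replicate left out. For the rest, the cause was not tested. The averaging of intensities and the keeping of outlier spots were added after the values were seen. Totals per miRNA and the deposited table give miR-574-3p a placeholder, so its level and the difference between arms have no value there, nor with the sum of detected probes, where it has none and also no position. No paired analysis was possible because both arrays belong to 1 group. Signal over background limits every value of the 3p arm.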
